A study of Homo sapiens with 24 samples.

Results

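The genes described here belong to the surrogate light chain of the pre-B-cell receptor, to its relatives, or to the rearrangement of immunoglobulin genes. They are IGLL1, VPREB1, VPREB3 and IGLL5, which belong to the surrogate light chain and its relatives, and RAG1, RAG2 and DNTT, which belong to V(D)J recombination. The 7 genes were picked by symbol out of 25161 symbols on the array, with earlier results of these data known, and each had 1 row in the expression table, so that no choice between rows by their mean was needed. RNA of 2 established cell lines was hybridised to 24 Clariom D arrays, a whole-transcriptome platform. SU-DHL-4 derives from a diffuse large B-cell lymphoma of the germinal-centre type and DG-75 from a Burkitt lymphoma. Cultures of both lines received the solvent DMSO, 1 µM Entospletinib (Ento), 0.01 µM AZD5153 (AZD) or the same doses of both (Ento+AZD) for 72 h, with 3 arrays in each of the 8 groups. Ento inhibits SYK, the kinase that relays signals from the B-cell receptor and its precursor form, and AZD binds the BET proteins, readers of acetylated chromatin, through both of their bromodomains. Each disease is represented by a single line, so that a difference between the lines cannot be told apart from a difference between these 2 cultures. In bulk RNA, fewer cells with a transcript and less of it per cell cannot be told apart either.

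In a pre-B cell the immunoglobulin heavy chain has been made and the light chain has not. VPREB1 and IGLL1, also called lambda 5, then stand in as a surrogate light chain, and the complex signals through CD79A, CD79B and SYK. The RAG1 and RAG2 proteins form the recombinase that cuts antigen receptor genes, and DNTT, terminal deoxynucleotidyl transferase, adds untemplated nucleotides at the joints. These genes are known to be switched off as B cells mature. VPREB3, a small protein of the endoplasmic reticulum that binds immunoglobulin chains, is known to persist in germinal-centre B cells. IGLL5 lies in the lambda light chain locus and its transcript is spliced to a lambda joining and constant segment, so that probes for it can also bind lambda light chain RNA.

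In RefSeq on GRCh38.p14, 4 of the 7 genes lie on chromosome 22, where VPREB1 spans 22244786 to 22245515, IGLL5 22887816 to 22896111, IGLL1 23573125 to 23580290 and VPREB3 23752743 to 23754425. RAG1 and RAG2 are neighbours on chromosome 11 and DNTT lies on chromosome 10. The RefSeq promoter table held 6 of the 7 genes, without IGLL5. The 250 bases before the start site are shown for the 3 chromosome 22 genes with an entry, because VPREB3 was the member of this family with the widest range of levels and VPREB1 and IGLL1 are its relatives on the same chromosome. Capitals mark the octamer ATTTGCAT, the binding sequence of the OCT factors in immunoglobulin promoters, and the E-box CAGGTG or its reverse complement CACCTG, which E proteins bind. VPREB3 occupies chr22:23754426-23754675 on the minus strand, VPREB1 chr22:22244536-22244785 on the plus strand and IGLL1 chr22:23580291-23580540 on the minus strand.
VPREB3: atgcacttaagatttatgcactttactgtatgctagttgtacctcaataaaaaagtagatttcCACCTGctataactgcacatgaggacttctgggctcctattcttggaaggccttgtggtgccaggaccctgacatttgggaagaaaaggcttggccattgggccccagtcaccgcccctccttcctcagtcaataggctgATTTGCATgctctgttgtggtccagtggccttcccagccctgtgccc
VPREB1: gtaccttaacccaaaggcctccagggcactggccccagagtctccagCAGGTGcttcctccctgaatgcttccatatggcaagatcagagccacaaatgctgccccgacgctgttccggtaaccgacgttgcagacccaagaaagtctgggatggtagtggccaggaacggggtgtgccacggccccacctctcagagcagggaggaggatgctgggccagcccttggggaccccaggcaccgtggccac
IGLL1: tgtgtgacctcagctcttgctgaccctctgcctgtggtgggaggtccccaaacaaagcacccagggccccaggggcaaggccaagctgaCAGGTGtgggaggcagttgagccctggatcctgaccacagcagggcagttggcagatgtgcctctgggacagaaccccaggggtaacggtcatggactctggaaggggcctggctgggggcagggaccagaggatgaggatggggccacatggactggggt

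The octamer was found on either strand in 1 of the 6 promoters, that of VPREB3, where it began 47 bases before the start site. Among all 35116 promoters of the same length in the table, 1.63% held it. The E-box was found in 4 of the 6, in VPREB3, VPREB1, IGLL1 and DNTT, against 17.5% of all promoters. The EBF sequence, TCCC and GGGA with 2 free bases between them, was found in 0 of the 6 and in 1.06% of all promoters. The searched motifs did not overlap in these windows. Such matches describe the sequence and do not show that a factor was bound.

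Array medians lay between 4.89 and 5.14 on the log2 scale, and the correlation between replicates, taken across genes, was 0.981 to 0.992. No detection value was used here, so that a low value cannot be read as absence of the transcript. All 6 B-cell markers had rows, and CD79A lay between 11.21 and 12.43 over both lines. The CD20 gene MS4A1 lay between 11.27 and 11.83 in SU-DHL-4 and between 6.22 and 8.0 in DG-75. The germinal-centre marker SERPINA9 lay between 9.15 and 10.06 in SU-DHL-4 and only between 2.66 and 4.72 in DG-75. The mean of 4 T-cell markers stayed between 2.49 and 3.04 in all 8 groups, and that of 4 myeloid markers between 3.93 and 4.44. Of the 6 precursor markers outside the 7 genes, CD34, FLT3 and KIT had medians of 1.85 to 4.11 in the lines, CRLF2 and ERG medians of 5.33 to 5.62, and IL7R a median of 4.95 in SU-DHL-4 against 6.97 in DG-75.

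The levels of the 7 genes were first set side by side over all 8 groups. VPREB3 and IGLL5 were the 2 genes whose group means spanned more than 1 log2 unit, by 3.44 and 1.88. The other 5 genes spanned 0.18 to 0.7. VPREB3 was higher in every SU-DHL-4 array, at 10.55 to 11.25 with a median of 10.94, than in any DG-75 array, at 6.95 to 9.52 with a median of 8.38. IGLL5 ran the other way, with 5.27 to 8.04 and a median of 7.12 in SU-DHL-4 and 7.28 to 8.29 with a median of 7.89 in DG-75, and here the lines overlapped. The classical surrogate light chain genes did not separate the lines, since the median of VPREB1 was 4.37 in SU-DHL-4 against 4.4 in DG-75 and that of IGLL1 6.23 against 6.21. Medians in the same order were 3.29 and 3.28 for RAG1, 3.51 and 3.26 for RAG2, and 2.76 and 2.84 for DNTT.

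**Figure D1:**
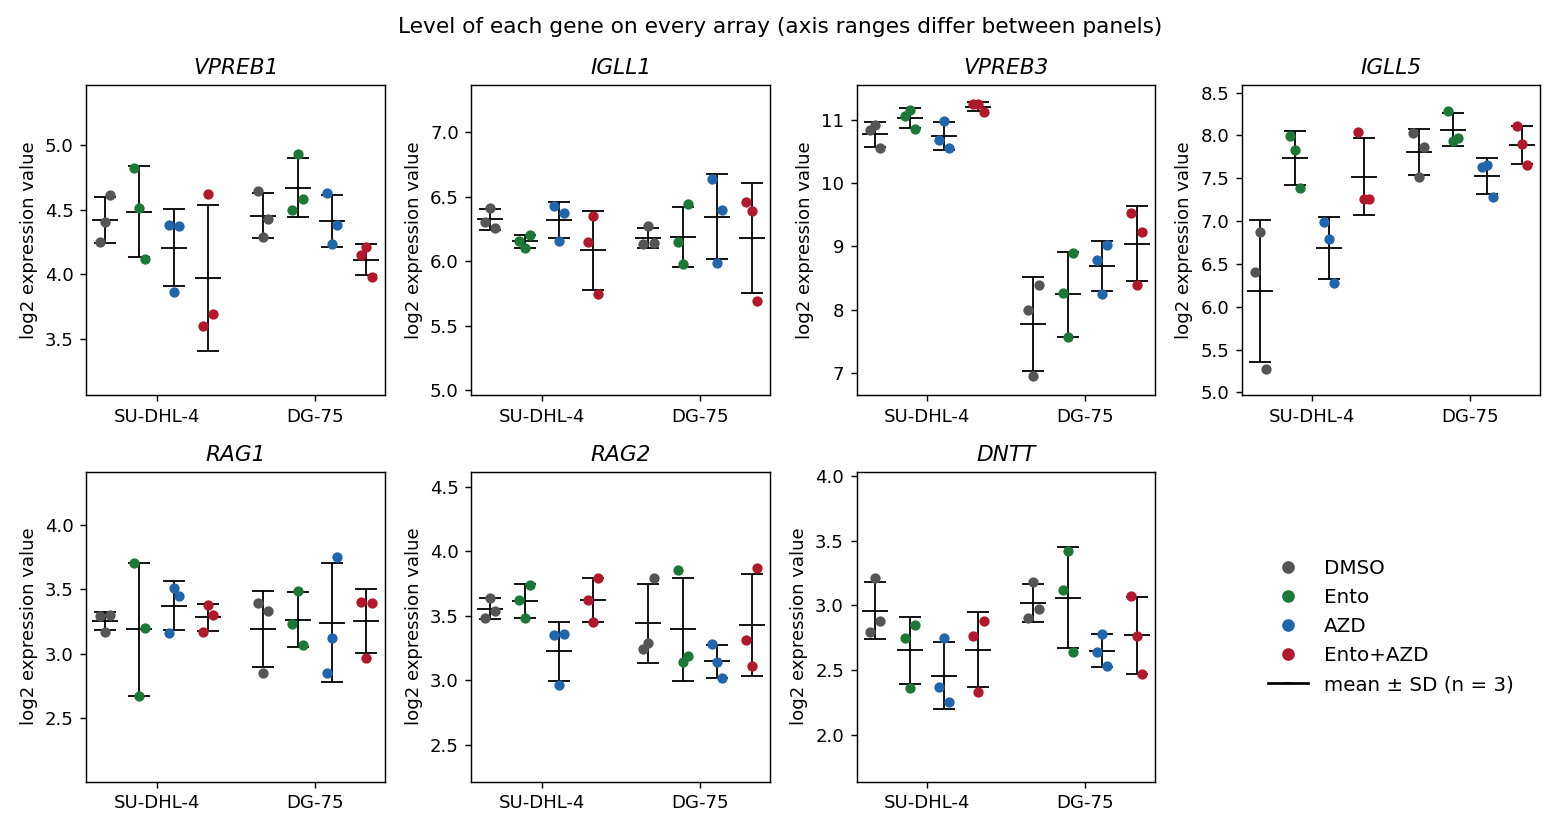
Log2 expression value of each of the 7 genes (vertical axis) in the 4 treatments of SU-DHL-4 and DG-75, with 1 point per array and bars for mean ± SD (n = 3). VPREB3 separates the lines and climbs from 7.77 under DMSO to 9.04 under Ento+AZD in DG-75, IGLL5 is lowest in SU-DHL-4 under DMSO at 6.19, and the other 5 genes stay within 0.7 between their group means.

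The lines were compared under DMSO to ask which of these genes differ before any inhibitor. VPREB3 was higher in SU-DHL-4 and IGLL5 was lower there, and the other 5 genes were not called. Here and throughout, called means a fold change over 2 with a limma adjusted p under 0.05, from a fit of all rows. VPREB3 read 10.84, 10.91 and 10.55 in SU-DHL-4 and 7.99, 6.95 and 8.38 in DG-75. The difference was 2.99 on the log2 scale (95% interval 2.37 to 3.62, SE 0.302, limma adjusted p = 1.93e-07), a fold of 7.97. IGLL5 read 6.41, 6.87 and 5.27 in SU-DHL-4 and 8.03, 7.51 and 7.87 in DG-75. SU-DHL-4 was lower by -1.62 (95% interval -2.1 to -1.13, SE 0.233, limma adjusted p = 2.37e-05), a fold of 3.07. The arrays of the lines did not overlap for either gene, and 2 of 7 genes were called where 7.24% of all rows were. Both calls held in all 6 fits with 1 array left out, with VPREB3 at 2.67 to 3.26 and IGLL5 at -1.98 to -1.27. For the other 5 genes the lowest adjusted p was 0.71.

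VPREB3 was called higher under Ento+AZD against DMSO in DG-75. Its 3 arrays read 7.99, 6.95 and 8.38 under DMSO, 8.26, 7.56 and 8.9 under Ento, 8.78, 8.25 and 9.02 under AZD and 9.52, 8.38 and 9.22 under Ento+AZD. The group means stood in that order, at 7.77 ± 0.74, 8.24 ± 0.67, 8.68 ± 0.40 and 9.04 ± 0.59 (SD, n = 3), and each step between neighbours was smaller than the larger of their SDs. Replicate 2 was the lowest array of every treatment, and these SDs take no account of the replicate number. Each step was upward in 3 of 3 same-numbered differences, and none of the steps was called. VPREB3 rose by 1.27 under Ento+AZD (95% interval 0.86 to 1.68, SE 0.186, limma adjusted p = 0.0162), a fold of 2.41, and was higher in 3 of 3 same-numbered differences. The highest DMSO and the lowest Ento+AZD array both read 8.38 after rounding, and before rounding the groups only just failed to overlap. VPREB3 was the 1 gene of the 7 called in this comparison, where 0.833% of all rows were called and 0.125% were called higher.

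The single agents gave smaller values for VPREB3 in DG-75, neither of them called. AZD against DMSO was 0.91 (95% interval 0.50 to 1.32, limma adjusted p = 0.0679), short of both thresholds, and Ento against DMSO was 0.47 (95% interval 0.06 to 0.88, limma adjusted p = 1.0). In these comparisons 0 of the 7 genes were called by limma, with VPREB3 alone at an unadjusted p under 0.05 in each, against 0.18% of all rows called under AZD and 0.00391% under Ento. Ento+AZD was 0.36 above AZD (limma adjusted p = 1.0) and 0.80 above Ento (limma adjusted p = 0.0592), where 0% and 0.657% of all rows were called. limma called 0 of the 7 genes there, with 1 and 2 at an unadjusted p under 0.05. The Ento+AZD call of VPREB3 was kept in 2 of 6 fits with an array left out, while its change stayed between 1.09 and 1.45. Without DMSO replicate 1, DMSO replicate 2, Ento+AZD replicate 1 or Ento+AZD replicate 2 the adjusted p was 0.135, 0.0571, 0.123 or 0.0517, with changes of 1.28, 1.15, 1.09 and 1.27, and without the replicate number in the fit it was 0.12. The calls of all rows also varied over the 4 fits with an array left out, from 213 with all arrays to 0, 82, 0 and 69 in that order.

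Markers of B cells and of other cell types were read beside VPREB3 in DG-75. The mean level of the 6 B-cell markers lay between 8.36 and 8.74 under DMSO, 8.5 and 8.84 under Ento, 8.93 and 9.07 under AZD and 8.98 and 9.43 under Ento+AZD. CD79B, the signalling partner of the B-cell receptor, rose by 1.03 under Ento+AZD (SE 0.187, limma adjusted p = 0.0227). It was the 1 marker of the 6 called there, beside 0.833% of all rows, and MS4A1 changed by 0.52 (limma adjusted p = 0.361) and PAX5 by 0.12 (limma adjusted p = 0.772). Of the 4 germinal-centre markers limma called 0, with 1 at an unadjusted p under 0.05 beside 16% of all rows, and the values were -0.3 for BCL6, -0.34 for SERPINA9, -0.49 for S1PR2 and -0.64 for MYBL1. The T-cell markers had means of 2.63 to 2.94 under DMSO and 2.49 to 2.62 under Ento+AZD. The part of these genes in the VPREB3 result was not tested.

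In SU-DHL-4, where VPREB3 started high, its values moved little. The arrays read 10.84, 10.91 and 10.55 under DMSO, 11.06, 11.16 and 10.85 under Ento, 10.68, 10.98 and 10.55 under AZD and 11.25, 11.25 and 11.12 under Ento+AZD. All 3 Ento+AZD arrays lay above the DMSO arrays, and the change of 0.44 (95% interval 0.15 to 0.73, limma adjusted p = 0.129) was not called. Ento and AZD gave 0.26 and -0.03, with intervals of -0.04 to 0.55 and -0.32 to 0.26. The difference between the lines was tested for each treatment. The change in SU-DHL-4 less that in DG-75 was -0.83 for Ento+AZD (95% interval -1.30 to -0.36, limma adjusted p = 0.283), -0.94 for AZD (95% interval -1.41 to -0.47, limma adjusted p = 0.285) and -0.21 for Ento (limma adjusted p = 1.0), so that none was called over all rows. Over both lines, VPREB3 was higher by 0.85 under Ento+AZD (SE 0.161, limma adjusted p = 0.00151), in 6 of 6 same-numbered differences, and fell short of the minimum fold change. In that comparison 0 of 7 genes were called by limma, 3 had an unadjusted p under 0.05, and 0.856% of all rows were called.

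**Figure D2:**
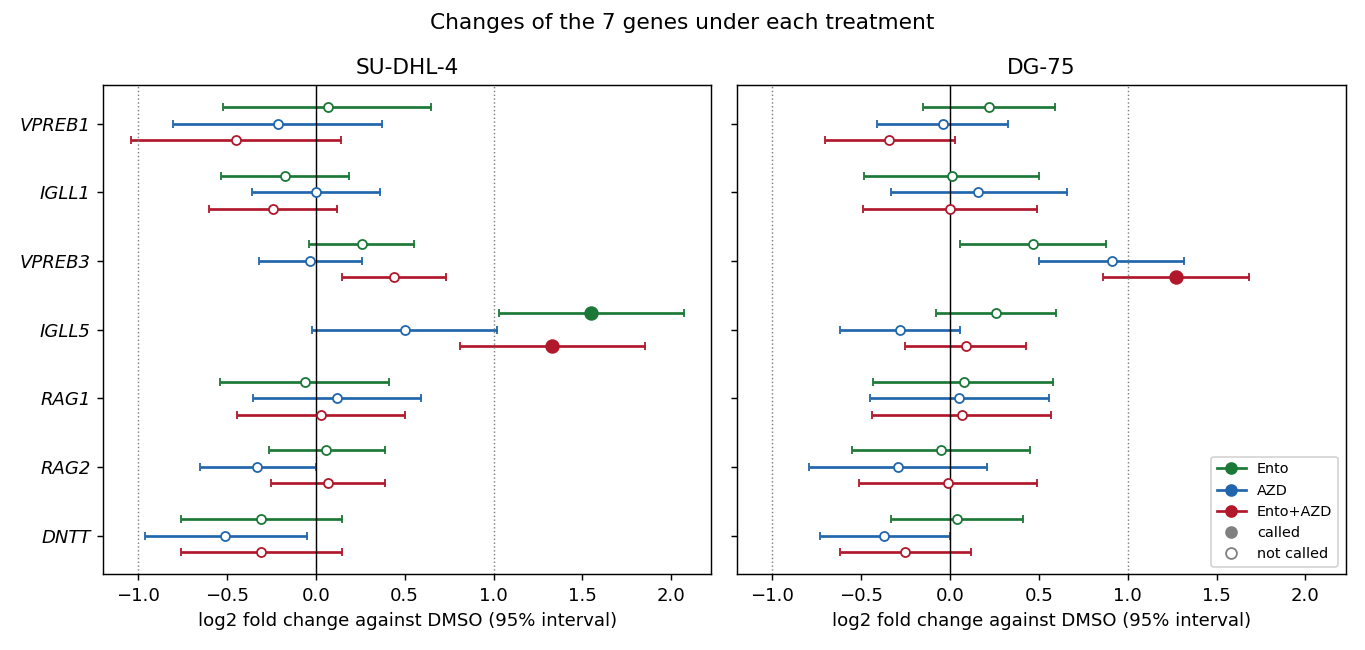
Log2 fold change against DMSO with its 95% interval (horizontal axis) for each of the 7 genes under Ento, AZD and Ento+AZD, with SU-DHL-4 on the left and DG-75 on the right. Filled points are called and dotted lines mark a fold change of 2. IGLL5 in SU-DHL-4 under Ento (1.55) and Ento+AZD (1.33) and VPREB3 in DG-75 under Ento+AZD (1.27) are the called points.

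IGLL5 was called in the other line, and with Ento rather than AZD. In SU-DHL-4 its arrays read 6.41, 6.87 and 5.27 under DMSO, 7.99, 7.83 and 7.39 under Ento, 6.99, 6.79 and 6.28 under AZD and 8.04, 7.26 and 7.26 under Ento+AZD. Every array with Ento, alone or in the combination, lay above every DMSO and every AZD array. The means were 6.19 ± 0.82, 7.74 ± 0.31, 6.69 ± 0.36 and 7.52 ± 0.45 (SD, n = 3), and DMSO replicate 3 was the lowest array of all 24. IGLL5 rose by 1.55 under Ento (95% interval 1.03 to 2.07, SE 0.24, limma adjusted p = 0.0487), a fold of 2.93, and by 1.33 under Ento+AZD (95% interval 0.81 to 1.85, SE 0.24, limma adjusted p = 0.0147), a fold of 2.51. Both changes were higher in 3 of 3 same-numbered differences. IGLL5 was the 1 gene of the 7 called in either comparison, where 0.0508% of all rows were called under Ento and 1.19% under Ento+AZD, and 0.0391% and 0.102% were called higher. The 2 comparisons share their DMSO arrays.

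AZD gave IGLL5 a smaller value that was not called, 0.50 (95% interval -0.02 to 1.02, limma adjusted p = 0.455), in a comparison with 0 of 7 genes called by limma, 2 at an unadjusted p under 0.05 and 0.18% of all rows called. Ento+AZD differed from Ento by -0.22 (95% interval -0.74 to 0.30, limma adjusted p = 0.861) and from AZD by 0.83 (95% interval 0.31 to 1.35, limma adjusted p = 0.526), with 0.0821% and 0.0274% of all rows called. limma called 0 of the 7 genes in these comparisons, with 0 and 3 at an unadjusted p under 0.05. AZD against Ento was -1.05 (SE 0.24, limma adjusted p = 0.0937), lower in 3 of 3 same-numbered differences. There 0 of 7 genes were called by limma, 2 had an unadjusted p under 0.05, and 0.379% of all rows were called. In a limma fit of all 24 arrays the -1.05 of IGLL5 was called (adjusted p = 0.0206), and so it was with another variance prior (adjusted p = 0.0257).

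The 2 calls of IGLL5 were also lost in fits with an array left out. The Ento call was kept in 1 of 6 fits, the one without DMSO replicate 2, and without DMSO replicate 1, DMSO replicate 3, Ento replicate 1, Ento replicate 2 or Ento replicate 3 the adjusted p was 0.268, 0.256, 0.106, 0.188 or 0.231. The Ento+AZD call was lost without DMSO replicate 1 (0.0585), DMSO replicate 3 (0.071), Ento+AZD replicate 1 (0.0663) or Ento+AZD replicate 3 (0.0833), and kept in 2 of 6 fits. The direction never turned, with changes of 1.26 to 1.9 for Ento and 1.04 to 1.68 for Ento+AZD. Without DMSO replicate 3, the array with the lowest level, they were 1.26 and 1.04. In the fits that lost the Ento call 2 or 3 of all rows were called, against 13 with all arrays, and in those that lost the Ento+AZD call 162 to 330, against 304. Without the replicate number in the fit the adjusted p was 0.3 for Ento and 0.128 for Ento+AZD, and for Ento it was 0.0626 after quantile normalization and 0.0598 in the fit of only the 2 treatments compared.

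**Figure D3:**
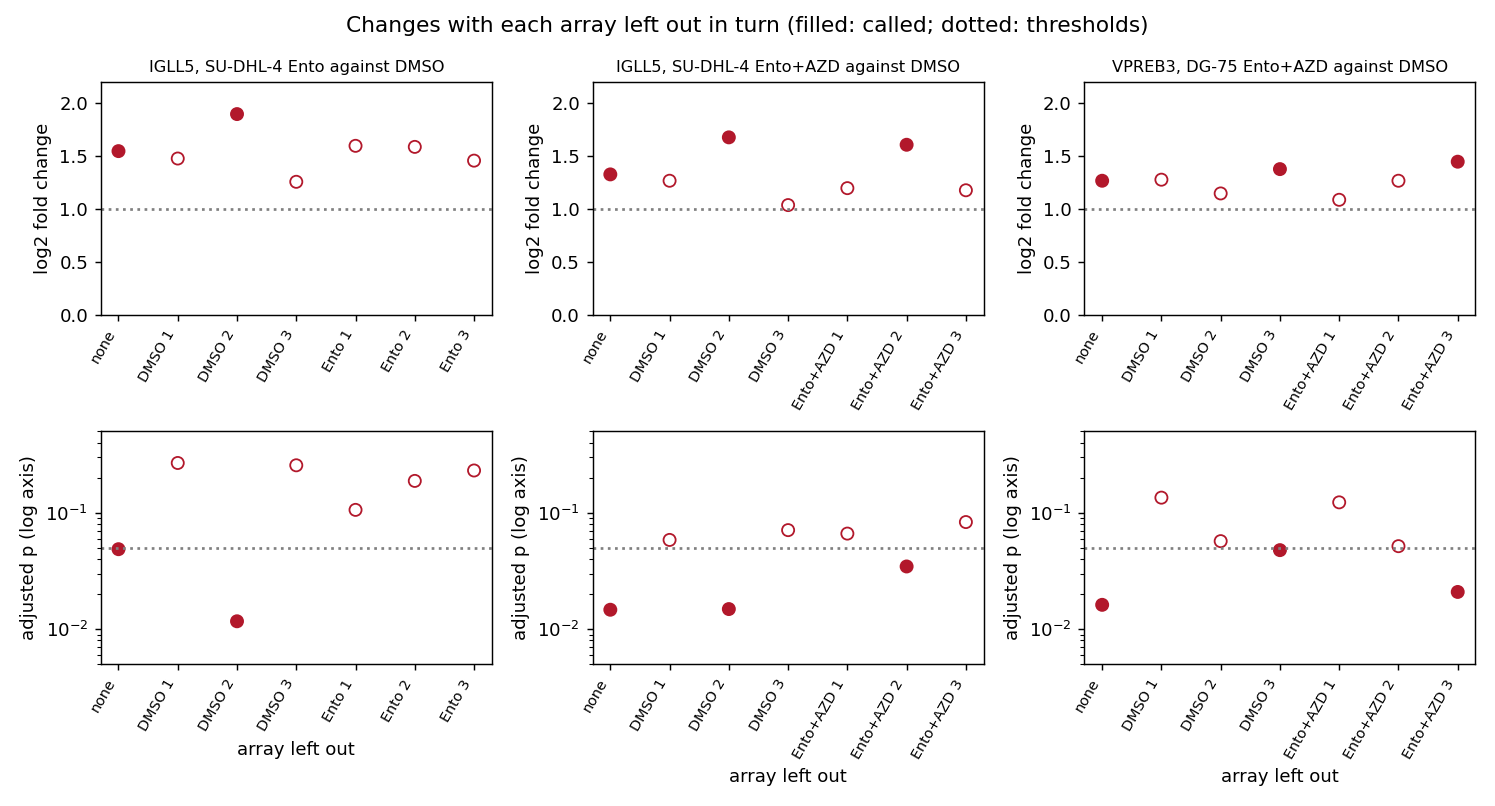
Log2 fold change (upper row) and limma adjusted p on a log axis (lower row) of the 3 called treatment changes, with all arrays and with each array of the comparison left out. Filled points are called and dotted lines mark the thresholds of 1 and 0.05. All changes stay above 1, while 1 of 6, 2 of 6 and 2 of 6 fits keep the adjusted p under the threshold.

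In DG-75, where IGLL5 was higher under DMSO, none of its changes was called. The arrays read 8.03, 7.51 and 7.87 under DMSO, 8.29, 7.94 and 7.97 under Ento, 7.63, 7.66 and 7.28 under AZD and 8.11, 7.9 and 7.66 under Ento+AZD. The changes against DMSO were 0.26 (95% interval -0.08 to 0.60) with Ento, -0.28 (95% interval -0.62 to 0.06) with AZD and 0.09 (95% interval -0.25 to 0.43) with the combination. All 3 AZD arrays lay below all 3 Ento arrays, as in SU-DHL-4, with a difference of -0.54 (limma adjusted p = 0.134), where limma called 0 of the 7 genes, 3 had an unadjusted p under 0.05 and 0.344% of all rows were called. Over both lines IGLL5 was higher by 0.71 under Ento+AZD (SE 0.212, limma adjusted p = 0.0408), in 5 of 6 same-numbered differences and short of the minimum fold change, and its value under Ento was 0.91 (SE 0.212, limma adjusted p = 0.318), above 0 in 6 of 6. For IGLL5 the change in SU-DHL-4 less that in DG-75 was 1.29 for Ento (95% interval 0.65 to 1.92, limma adjusted p = 0.536) and 1.24 for Ento+AZD (95% interval 0.61 to 1.88, limma adjusted p = 0.206), and was not called. It was called for Ento+AZD at 1.6 without SU-DHL-4 DMSO replicate 2 (limma adjusted p = 0.0375). In these tests of the difference between lines 0 of 7 genes were called by limma, with 1 at an unadjusted p under 0.05 for Ento, 2 for AZD and 2 for the combination, where 0.00782%, 0% and 0.0352% of all rows were called.

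Whether the IGLL5 row reads IGLL5 or the lambda light chain cannot be told apart, since the table gives symbols without probes. Of 14 symbols of the lambda locus and of light chains, 4 had rows, namely the pseudogene IGLL3P and the genes PRAME, ZNF280A and ZNF280B. limma called 0 of the 4 in either comparison in which IGLL5 was called, where 0.0508% and 1.19% of all rows were, with 0 at an unadjusted p under 0.05 for Ento and 3 for Ento+AZD, beside 8.59% and 14% of all rows. IGLL3P, a relative of IGLL1 and IGLL5 farther along chromosome 22, lay between 5.69 and 6.66 in SU-DHL-4 and changed there by -0.14 under Ento and 0.09 under Ento+AZD, with limma adjusted p of 0.865 and 0.872. PRAME, ZNF280B and ZNF280A had values of -0.66, -0.51 and 0.38 under Ento+AZD in SU-DHL-4. BMS1P20, a pseudogene next to VPREB1 at the start of the locus and chosen after its values were seen, changed by 0.57 under Ento (limma adjusted p = 0.505) and by 0.80 under Ento+AZD (limma adjusted p = 0.0731) in SU-DHL-4 and was not called. Closer to IGLL5 in RefSeq order, values under Ento and Ento+AZD in SU-DHL-4 were -0.61 and -0.35 for GGTLC2 and -0.12 and -0.07 for MIR650. They were -0.04 and 0.03 for RSPH14, and none of these genes was called.

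The 2 genes that make the surrogate light chain itself, VPREB1 and IGLL1, were not called in any comparison. VPREB1 had means of 4.42 ± 0.18, 4.48 ± 0.35, 4.20 ± 0.30 and 3.97 ± 0.56 (SD, n = 3) under DMSO, Ento, AZD and Ento+AZD in SU-DHL-4 and of 4.45 ± 0.17, 4.67 ± 0.23, 4.41 ± 0.20 and 4.12 ± 0.12 in DG-75. Ento+AZD gave its lowest mean in both lines. The change against DMSO was -0.45 in SU-DHL-4 (95% interval -1.04 to 0.14) and -0.34 in DG-75 (95% interval -0.70 to 0.03), and over both lines it was -0.39 (limma adjusted p = 0.149). The DG-75 arrays read 4.15, 4.21 and 3.98 under Ento+AZD and 4.5, 4.93 and 4.58 under Ento, without overlap and with a difference of -0.56 (limma adjusted p = 0.13). In SU-DHL-4 replicate 2 of Ento+AZD, at 4.62, stood apart from the other arrays of its group, at 3.6 and 3.69. IGLL1 lay between 5.69 and 6.64 on all 24 arrays. Its 3 SU-DHL-4 arrays under Ento, at 6.1 to 6.2, lay below the DMSO arrays, at 6.26 to 6.41, and the change was -0.17 (limma adjusted p = 0.82). Its changes against DMSO ran from -0.24 to 0.16, with 95% intervals inside -0.6 to 0.66.

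RAG1, RAG2 and DNTT were not called in any comparison either. RAG1 was the flattest of the 7 genes, with group means of 3.19 to 3.37 and changes against DMSO of -0.06 to 0.12, inside intervals of -0.54 to 0.59. RAG2 had its lowest mean under AZD in both lines, 3.23 ± 0.23 in SU-DHL-4 against 3.55 ± 0.08 under DMSO, and 3.15 ± 0.13 in DG-75 against 3.44 ± 0.31 (SD, n = 3). In SU-DHL-4 its AZD arrays read 3.35, 2.96 and 3.36 and its DMSO arrays 3.48, 3.64 and 3.54, and over both lines the AZD change was -0.31 (95% interval -0.58 to -0.04, limma adjusted p = 0.198). DNTT also had its lowest mean under AZD, in SU-DHL-4 2.46 ± 0.26 against 2.96 ± 0.22 under DMSO, and in DG-75, 2.65 ± 0.13 against 3.02 ± 0.15 (SD, n = 3). All 3 AZD arrays of DNTT lay below all 3 DMSO arrays in each line, at 2.37, 2.75 and 2.25 against 2.79, 3.21 and 2.88 in SU-DHL-4 and at 2.64, 2.78 and 2.53 against 2.9, 3.18 and 2.97 in DG-75. The share of all rows that separate in this way was not counted, here or for the other genes. These levels are low. Over all arrays RAG2 lay between 2.96 and 3.87 and DNTT between 2.25 and 3.42. The T-cell gene CD3D lay between 2.75 and 3.69, and the lowest array median was 4.89. Over both lines the change of DNTT was -0.44 (95% interval -0.72 to -0.16, limma adjusted p = 0.0688), the lowest adjusted p of any of these 5 genes. There 0 of 7 genes were called by limma, 3 had an unadjusted p under 0.05 and 0.254% of all rows were called, and under Ento over both lines the counts were 0 and 2 with 0.00782% of all rows called. Across the 95 values of these 5 genes in all comparisons, 9 had an unadjusted p under 0.05, beside 11.4% of the values of all rows.

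Other genes of the same pathways were read from lists. Of 13 genes of V(D)J recombination and end joining, limma called 0 between the untreated lines (3 at an unadjusted p under 0.05), where 7.24% of all rows were called and 28% had an unadjusted p under 0.05. Under Ento+AZD it called 1 in SU-DHL-4, which was lower (4 at an unadjusted p under 0.05), where 1.19% of all rows were called and 14% had an unadjusted p under 0.05. In DG-75 it called 0 (7 at an unadjusted p under 0.05), where 0.833% and 16% of all rows stood. The called gene was HMGB2, a DNA-bending protein that aids RAG cutting in vitro and is abundant in dividing cells, which fell by 1.18 in SU-DHL-4 (SE 0.212, limma adjusted p = 0.0145). The list's median change was -0.12 in SU-DHL-4 against -0.23 in DG-75, beside -0.08 and -0.07 over all rows. Of 9 measured partners and signalling genes of the pre-B-cell receptor, CD79B was the 1 called under Ento+AZD, in DG-75, and in SU-DHL-4 limma called 0 with 2 at an unadjusted p under 0.05. The list's medians were 0.15 in SU-DHL-4 against 0.25 in DG-75. Under Ento alone in SU-DHL-4 limma called 0 of the 9, with 5 at an unadjusted p under 0.05 and a median of 0.29, beside 0.0508% of all rows called, 8.59% at an unadjusted p under 0.05 and a median of -0.06. SYK, the target of Ento, had values of 0.43 under Ento (limma adjusted p = 0.449) and 0.39 under Ento+AZD (limma adjusted p = 0.2) in SU-DHL-4, and of 0.08 (limma adjusted p = 1.0) and 0.34 (limma adjusted p = 0.278) in DG-75. Between the untreated lines 2 genes of this list were called higher in SU-DHL-4, CD79B (1.16) and the kinase gene BLK (1.27).

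Of 20 regulators of early B-cell genes, 6 were called between the untreated lines, beside 7.24% of all rows. EBF1 (2.03) and FOXO1 (1.26), which switch on surrogate light chain and RAG genes in precursors, were higher in SU-DHL-4, and TCF4 (-1.33), IKZF3 (-1.31), IRF4 (-2.24) and MYB (-2.1) were lower there. Under Ento+AZD, beside 1.19% of all rows called in SU-DHL-4 and 0.833% for DG-75, MYB was called lower in both lines (-2.56 for SU-DHL-4 and -1.52 for DG-75) and BACH2 higher in SU-DHL-4 (1.17, and 1.32 under Ento), and the medians of the list were 0.01 and -0.04. EBF1 and FOXO1 were not called under any treatment and changed by 0.06 and 0.29 under Ento+AZD in SU-DHL-4 and by 0.11 and 0.24 in DG-75. Of 6 precursor markers, IL7R, the receptor for interleukin 7 on early B cells, was the 1 called under Ento+AZD, by -1.69 in SU-DHL-4 (SE 0.371, limma adjusted p = 0.0349) and -1.93 in DG-75 (SE 0.336, limma adjusted p = 0.0215). It was also called lower under AZD in DG-75 (-2.13, limma adjusted p = 0.0471). In that comparison 46 of all rows were called with all arrays. In every fit with an array left out, and after subtraction of array medians, 0 were called, so that this call of IL7R was lost. Of 4 plasma cell markers, XBP1 rose by 1.25 under Ento+AZD in SU-DHL-4 (limma adjusted p = 0.00811), where IGLL5 was also called, and SDC1, PRDM1 and JCHAIN had values of 0.15, -0.15 and 0.01. Under Ento alone, where IGLL5 was called too, limma called 0 of the 4, with 2 at an unadjusted p under 0.05 and a median of -0.05, beside 0.0508% of all rows called and 8.59% at an unadjusted p under 0.05. In DG-75, where IGLL5 was not called, XBP1 was higher by 0.67 under Ento+AZD (limma adjusted p = 0.0258), short of the minimum fold change. In SU-DHL-4 the mean of the 4 lay between 5.95 and 6.02 under DMSO and between 6.04 and 6.42 under Ento+AZD, and the part of these genes in the IGLL5 result was not tested.

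**Figure D4:**
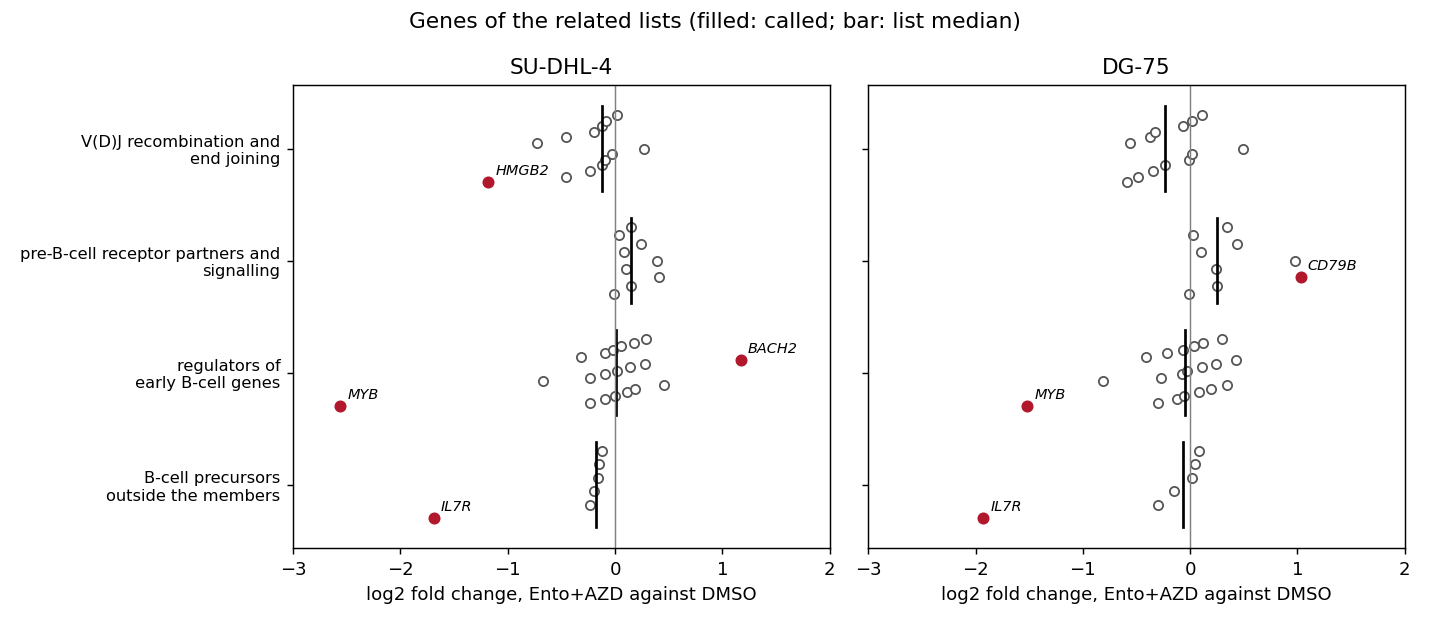
Log2 fold change under Ento+AZD against DMSO (horizontal axis) of single genes of 4 related lists (rows), in SU-DHL-4 on the left and DG-75 on the right. Filled points are called and named and bars mark list medians, which lie between -0.23 and 0.25.

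The genes most like each member were sought among 12788 rows at or above the median level, by Pearson correlation over 24 arrays after the mean of each line was subtracted. These values describe the arrays, which share cultures, replicate numbers and normalization. VPREB3 was most like SNX29P1 (0.914), SNX29P2 (0.902) and PCDHGC3 (0.871), the first pair of which are pseudogene copies of SNX29 whose signals may not be separate. IGLL5 was most like CEACAM1 (0.758), AFF3 (0.723) and SP140 (0.721). The highest correlations of the other 5 genes were 0.854 for IGLL1 with CD276, 0.783 for VPREB1 with ZNF606, 0.793 for RAG1 with LLGL1, 0.683 for RAG2 with MROH8 and 0.791 for DNTT with MAP3K5.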

How the data were processed

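The authors deposited 1 table of log2 expression values for 24 Clariom D arrays. According to the methods, arrays were normalized by RMA in R with limma, and affycoretools with the platform's annotation package gave each probe set its gene symbol. The log base follows from RMA, and package versions and the genome build of the array annotation are not given in the sources used here. The table held 25575 rows for 25161 symbols. Columns were assigned by name (initial of the line, treatment, replicate number), which left 0 unused. Array values were not changed, except in the alternatives.

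limma 3.58.1 in R 4.3.3 (lmFit, eBayes) was fitted to all rows: each line on its own with treatment and replicate number, and all 24 arrays for the difference between lines under DMSO (with replicate number) and for changes over both lines and their difference (replicate number within line). P-values were adjusted by Benjamini-Hochberg over all rows. Calls needed a log2 change beyond 1 in either direction with an adjusted p under 0.05. The labels call the replicates biological without naming separate cultures, so that the p-values measure the spread between these samples. The number of arrays limits precision.

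The 7 genes, the lists and the tests were chosen with earlier results of these data known. Named genes were the members, their 3 most correlated genes each, and list genes that were called or had large changes. IGLL3P, SYK, EBF1 and FOXO1 were named for their role. The fits were tested on simulated data. Promoters came from RefSeq, GRCh38.p14.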

Additional observations from a re-analysis of the deposited data

How the results depend on the processing

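Alternatives were a fit without the replicate number, quantile normalization, subtraction of array medians, omission of rows under the median level, a variance prior with trend and robust estimation, 1 row per symbol, other sets of arrays in the fit, no minimum fold change, and each array left out. All 538 recomputed changes of members with an unadjusted p under 0.05 kept their direction, and 517 kept their side of the threshold. Of the rest, 18 lost a call and 3 gained one. Those changes were picked by their p in the same data, and most were not called with all arrays. The refits share most arrays, so that a kept direction says little. The 3 called treatment changes kept their call in 1 of 6, 2 of 6 and 2 of 6 fits with an array left out. Of 304 recomputed counts of members, nearly all of them counts of calls, 283 did not move, including counts of 0 that stayed 0. In SU-DHL-4, for Ento against DMSO, the count of 1 (IGLL5) was 0 without the replicate number as a block, 0 after quantile normalization and 0 in the fit of only the 2 treatments compared, with adjusted p of 0.3, 0.0626 and 0.0598, while 1, 7 and 16 of all rows were called, against 13. For Ento+AZD against DMSO it was 0 without the block in both lines, with adjusted p of 0.128 for IGLL5 in SU-DHL-4 and 0.12 for VPREB3 in DG-75. With arrays left out these 3 counts ranged from 0 to 1. In SU-DHL-4, for AZD against Ento, the count of 0 was 1 (IGLL5) with the other variance prior and 1 in the fit of all 24 arrays. The difference between lines under Ento+AZD ranged from 0 to 1 with arrays left out. The block changed no other call of a member. What the replicate numbers share is not given in the labels, and the study's array model has a batch term. Of 36 same-numbered pairs within a line, 19 deviated together at a correlation above 0.1, with a range of -0.35 to 0.39, so that not every pair did, while 19 of 24 arrays correlated best with their own number, a hint of shared batches from the data and not from the design. Subtraction of array medians moved the median change of all rows from -0.06 to 0.05 for Ento, from -0.08 to 0.04 for AZD and from -0.08 to 0.05 for Ento+AZD in SU-DHL-4. Under Ento+AZD it moved the share of calls that were higher over all rows from 8.55% to 21.9% in SU-DHL-4 and from 15% to 34.5% for DG-75, and quantile normalization moved it to 19.4% and 32.9%. Calls of all rows under Ento+AZD fell from 304 to 45 without the block and 56 without DMSO replicate 2 in SU-DHL-4. For DG-75 they fell from 213 to 47 without DMSO replicate 3. They fell to 0 there without DMSO replicate 1 and to 0 without Ento+AZD replicate 1. No other row existed for any member, so that the alternative of other rows gave no value. The array values of RAG1, RAG2, DNTT and VPREB1 lay under the median level and were not tested where such rows were left out.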

Other observations

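The measured neighbours of VPREB3 and IGLL5 on chromosome 22, 3 on each side in RefSeq order and chosen after the values of both genes were seen, were read under the same treatments. limma called 0 of the 72 changes of these 12 genes against DMSO, and 10 had an unadjusted p under 0.05, beside 11.1% of the values of all rows in the same 6 comparisons. ZNF70, the gene next to VPREB3, changed by 0.93 under Ento and 0.88 under Ento+AZD in SU-DHL-4 (limma adjusted p of 0.419 and 0.156) and by 0.45 under Ento+AZD in DG-75 (limma adjusted p = 0.378). GNAZ, a G protein gene near IGLL5, changed by -1.06 under AZD and -0.85 under Ento+AZD in SU-DHL-4 (limma adjusted p of 0.0724 and 0.0533). CHCHD10, on the other side of VPREB3, stayed between -0.1 and 0.07.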
